A study of Homo sapiens with 16 samples.

Results

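The regions described here carried an H3K27ac peak in A2780 cells and in their cisplatin-resistant derivative A2780cis, and no H3K27ac peak in A2780 cells with either of 2 hairpins against MBD3. They were selected on the H3K27ac peaks of 4 lists. Peaks on autosomes that overlapped by 1 bp or more were joined into merged regions, and a merged region was kept when it held an A2780 and an A2780cis peak and no shMBD3.26 or shMBD3.232 peak. The rule found 1180 regions among 36566 merged regions. Of the 13509 regions with a peak in A2780 and in A2780cis, these 1180 made up 8.73%, and the other 12329 had a peak in at least 1 hairpin list. Both hairpin lists also had no peak at 67.0% of the regions with an A2780 peak and no A2780cis peak (7458 of 11128) and at 80.2% of those with an A2780cis peak and no A2780 peak (4388 of 5468). The H3K27ac peaks of these 4 lists chose the members, so their presence, number and width in those lists are given as a description, without a test.

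Chromatin immunoprecipitation sequencing (ChIP-seq) of ovarian cancer cell lines was carried out on mononucleosomes with a Drosophila spike-in, with 1 library per condition. A2780 is a cisplatin (cPt)-sensitive line from an endometrioid ovarian adenocarcinoma, and A2780cis is a derivative of it that was kept in 1 µM cPt. CAOV4 is a serous ovarian cancer line, and CAOV4cis was derived from it by growth in rising amounts of cPt. The medium of CAOV4cis also held 1 µM cPt. The hairpin cells were A2780 cells made competent for doxycycline induction, transduced with a lentiviral vector, selected with G418, given doxycycline for 1 week and sorted for GFP. H3K27ac lists were used for A2780, A2780cis, shMBD3.26, shMBD3.232, CAOV4 and CAOV4cis, and H3K9ac lists for A2780 and A2780cis. The hairpin lists were set against A2780 cells without a vector, so the effects of the hairpin, the transduction, the selection, doxycycline and the sort cannot be told apart, and cells with a control hairpin were not analysed here.

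MBD3 is a subunit of the NuRD complex, which joins a nucleosome-remodelling ATPase to the histone deacetylases HDAC1 and HDAC2. Acetylation of histone H3 at lysine 27 marks active promoters and enhancers, and long clusters of such enhancers are often called super-enhancers. Acetylation at lysine 9 of the same histone is found mainly at active promoters and at strong enhancers.

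The 2 hairpins are shown because the rule rests on both of them. Each is the 22-base sequence listed by the study, 5′ to 3′, and the capitals mark bases 2 to 8. In a guide strand this stretch seeds pairing with a transcript. The strand of each relative to MBD3 was not checked here. The capitals therefore mark a position only, and they are no seed against MBD3 where the listed sequence is the sense strand.
shMBD3.26: aACAAGGTcaagagcgacccgc
shMBD3.232: tTGCTCATcagcatcttgcccg
The sequences held 13 and 12 G or C bases, respectively. How far each hairpin lowered MBD3 was not measured by these files. The study's methods describe Western blots of MBD3 protein to check the knockdown, and these were not used here.

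The autosomal H3K27ac lists held 27932 peaks in A2780, 20245 in A2780cis, 23270 with shMBD3.26 and 18936 with shMBD3.232, which covered 96.7, 91.5, 76.5 and 78.9 Mb. Both hairpin lists thus covered less of the genome than either reference list. The score column was 0 in every row, so peak height and sequencing depth are unknown, and a region without a peak may hold signal below the authors' cut-off. Chromosomes 20, 21 and 22 were without peaks in all 8 lists. The last peaks stopped well short of the human chromosome ends on chromosomes 1 to 12 (at 197193000 on chromosome 1) and came close to them on chromosomes 13 to 19, so the counts do not cover the whole genome. Peaks lay on a 200 bp grid, and peaks of a list were at least 1000 bp apart. How these limits arose is not given in the sources used here, and widths and gaps are to be read at that resolution. With 1 library per condition no difference has a replicate check, and the Wilson 95% intervals below cover counting error over regions only.

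The members were narrow. Their merged width ranged from 200 to 74000 bp with a median of 2200 bp (quartiles 1400 and 3400), while the other 12329 regions had a median of 5400 bp. The width of the other regions also takes in their hairpin peaks, which members lack by the rule. Of the 1180 members, 593 (50.3%) were wider than 2 kb, 129 (10.9%) wider than 5 kb and 29 (2.46%) wider than 10 kb. A single A2780 peak lay in 1150 members (97.5%) and a single A2780cis peak in 1173 (99.4%).

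A2780cis peaks covered more of the members than A2780 peaks did. A2780 peaks covered a median of 1200 bp of a member and A2780cis peaks 1600 bp, with medians of 3800 and 4000 bp in the other regions. A2780cis covered more bases than A2780 in 737 members (62.5%), fewer in 365 (30.9%) and equally many in 78 (6.61%), and covered more in 54.4% of the other regions. In 201 members (17%) A2780cis peaks covered at least 4 times the bases that A2780 peaks did, against 2.57% of the other regions. The reverse, at least 4 times more under A2780 peaks, held for 63 members (5.34%) and 2.51% of the other regions. Both ratios were thus more frequent in the members. The same peaks chose the members, so the contrast with the other regions is a description only.

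**Figure D1:**
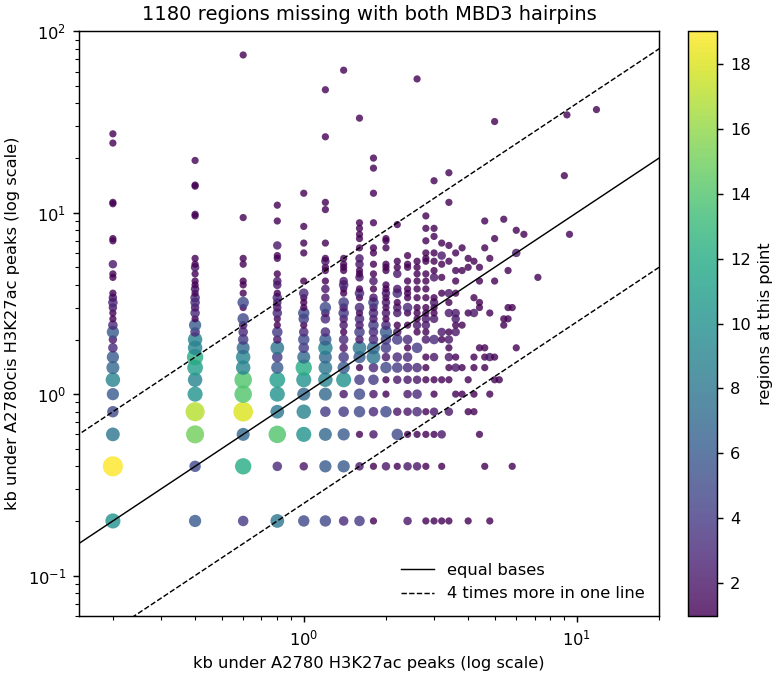
Bases of each of the 1180 members under A2780 peaks (x axis, kb, log scale) against bases under A2780cis peaks (y axis, kb, log scale), with the number of regions at a point given by its colour and size; the solid line marks equal bases and the dashed lines 4 times more in one line. Points spread above the upper dashed line up to 74.0 kb under A2780cis peaks, while no member had more than 11.8 kb under A2780 peaks.

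The share of peaks without a counterpart in either hairpin list fell with peak width. Of the 2138 A2780 peaks of up to 1 kb that met an A2780cis peak, 913 (42.7%) met neither hairpin list. This share was 18.8% for peaks of 1 to 2 kb, 7.04% for 2 to 4 kb and 1.87% for 4 to 8 kb, and it was 1 of 1968 peaks (0.0508%) over 8 kb. Among A2780cis peaks over 8 kb that met an A2780 peak, 40 of 2274 (1.76%) met neither hairpin list. Wide A2780 peaks that met an A2780cis peak were therefore almost always called in at least 1 hairpin list.

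**Figure D2:**
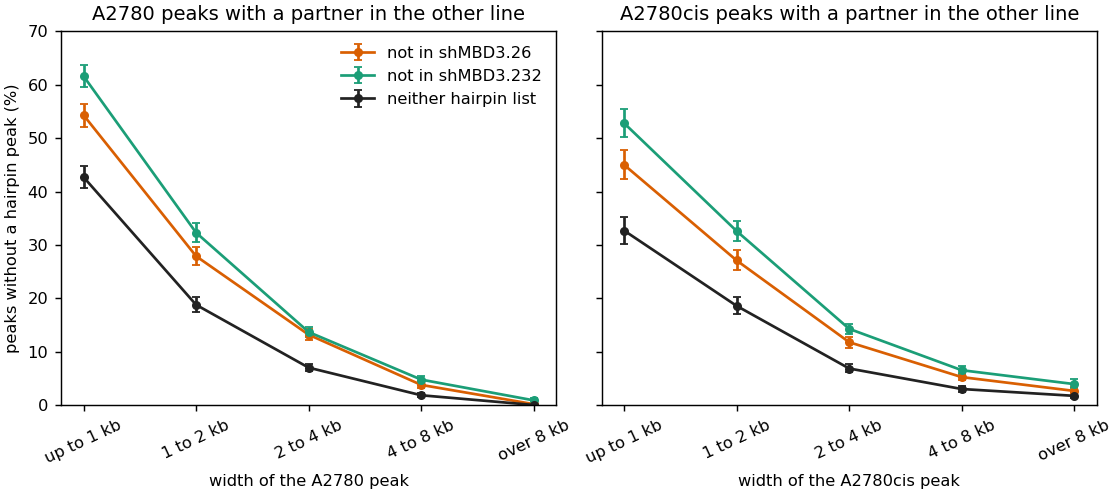
Percent of A2780 peaks (left) and A2780cis peaks (right) that met a peak of the other reference list but no peak of the hairpin list named, in 5 classes of peak width (kb). Each share falls from the narrowest class, where 42.7% of A2780 peaks and 32.7% of A2780cis peaks met neither hairpin list, to the widest.

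The single hairpins gave larger sets. At the regions with A2780 and A2780cis peaks, 1721 (12.7%) had no shMBD3.26 peak and 2213 (16.4%) had no shMBD3.232 peak. The members are the regions common to both, next to 541 without a peak with shMBD3.26 only and 1033 without a peak with shMBD3.232 only.

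At the limit of the rule, 14 members touched a hairpin peak without sharing a base with it; these were 1000 to 5600 bp wide, with a median of 2000 bp, and the widest was chr16:3515801-3521400. Just outside it, 93 of the other regions (0.754%) had at most 200 bp under hairpin peaks and were left out of the members. These 93 had a median width of 1800 bp, and the widest of them, chr7:81160801-81210200, was 49400 bp wide with 200 bp under a shMBD3.232 peak.

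Most members lay close to a hairpin peak. The nearest peak of either hairpin list was a median of 8000 bp away (quartiles 3000 and 24600), and the nearest other A2780 peak 7200 bp away. A hairpin peak lay no more than 5 kb from 455 members (38.6%), no more than 10 kb from 661 (56.0%) and no more than 50 kb from 1011 (85.7%). For 77 members (6.53%) the nearest hairpin peak was over 100 kb away. The farthest from shMBD3.26 was chr19:31839801-31842200, named after its values were seen, at 936400 bp; it was 2400 bp wide and carried 400 bp of A2780 and 2400 bp of A2780cis peaks.

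The members were spread over all 19 chromosomes with regions. As a share of the regions with A2780 and A2780cis peaks, they made up 11 of 237 (4.64%, 2.61 to 8.12%) on chromosome 13 and 79 of 1274 (6.20%, 5.00 to 7.66%) on chromosome 19, the lowest values. Chromosome 8 had the highest share, with 56 of 476 (11.8%, 9.17 to 15%), followed by chromosome 10 with 77 of 677 (11.4%). The interval lay above the share over all regions on 3 chromosomes and below it on 2, and it held that share on the other 14.

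After a member, the next region with A2780 and A2780cis peaks was also a member in 116 of 1178 cases (9.85%, 8.27 to 11.7%). After another region this was so in 1061 of 12312 cases (8.62%, 8.13 to 9.13%). These intervals overlapped, and the difference was not tested. Of the 1 Mb windows with members, 421 held 1 member, 162 held 2, 73 held 3 and 47 held 4 or more, so 759 members (64.3%) shared a window with another. No such share was taken for the other regions, so this number does not measure clustering. The window with the most members, chr16:1-1000000, held 9 among 42 regions.

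When all 36566 merged regions, whichever of the 4 lists they came from, were stitched across gaps of up to 12500 bp, a distance often used to join super-enhancers, 1078 stitched groups held members. Members alone formed 302 of these groups, which took in 311 members (26.4%), and only 9 of those held more than 1 member. A further 73 members (6.19%) were stitched to regions that were no members and had no hairpin peak either, such as regions with A2780cis peaks alone, and 796 members (67.5%) lay in a group with a hairpin peak. The most members in a group of members alone was 2, at chr8:99166201-99183000, chr2:20289401-20298600 and chr12:65625401-65633400 among others, with 12.2, 7.40 and 6.80 kb covered. The group at chr8:99166201-99183000 had 3.0 kb under A2780 and 12.0 kb under A2780cis peaks. The most covered group of members alone was a single region, chr13:24039201-24086800, with 47.6 kb, of which A2780 peaks covered 1.20 kb. After it and the chromosome 8 group came chr12:88966601-88975200, also a single region, with 8.6 kb covered by A2780cis and by CAOV4 peaks. Wide members stitched to a peak of A2780 or A2780cis alone are not in this ranking.

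Some windows with members, named after their values were seen, had little H3K27ac with a hairpin. The rule used these peaks, so the coverage is a description. In chr8:49000001-50000000, 6 of 10 regions were members, and A2780 peaks covered 49.0 kb, A2780cis peaks 42.0 kb, shMBD3.26 peaks 7.80 kb and shMBD3.232 peaks 2.60 kb of the window. H3K9ac covered 10.2 kb of it in A2780 and 10.4 kb in A2780cis, while CAOV4 peaks covered 0.200 kb and CAOV4cis had none. In chr1:102000001-103000000, where 3 of 9 regions were members, coverage was 173 kb in A2780, 240 kb in A2780cis, 89.6 kb with shMBD3.26 and 0.600 kb with shMBD3.232, and neither CAOV4 list had a peak. There the 2 hairpins differed, with shMBD3.26 keeping 13 peaks and shMBD3.232 keeping 2. By contrast, chr12:65000001-66000000 held 7 members among 23 regions and stayed covered in all 4 lists, with 322, 305, 271 and 269 kb. The window chr5:149000001-150000000, with 7 members among 19 regions, also stayed covered, with 63.0, 57.0, 55.2 and 49.4 kb in the same order.

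**Figure D3:**
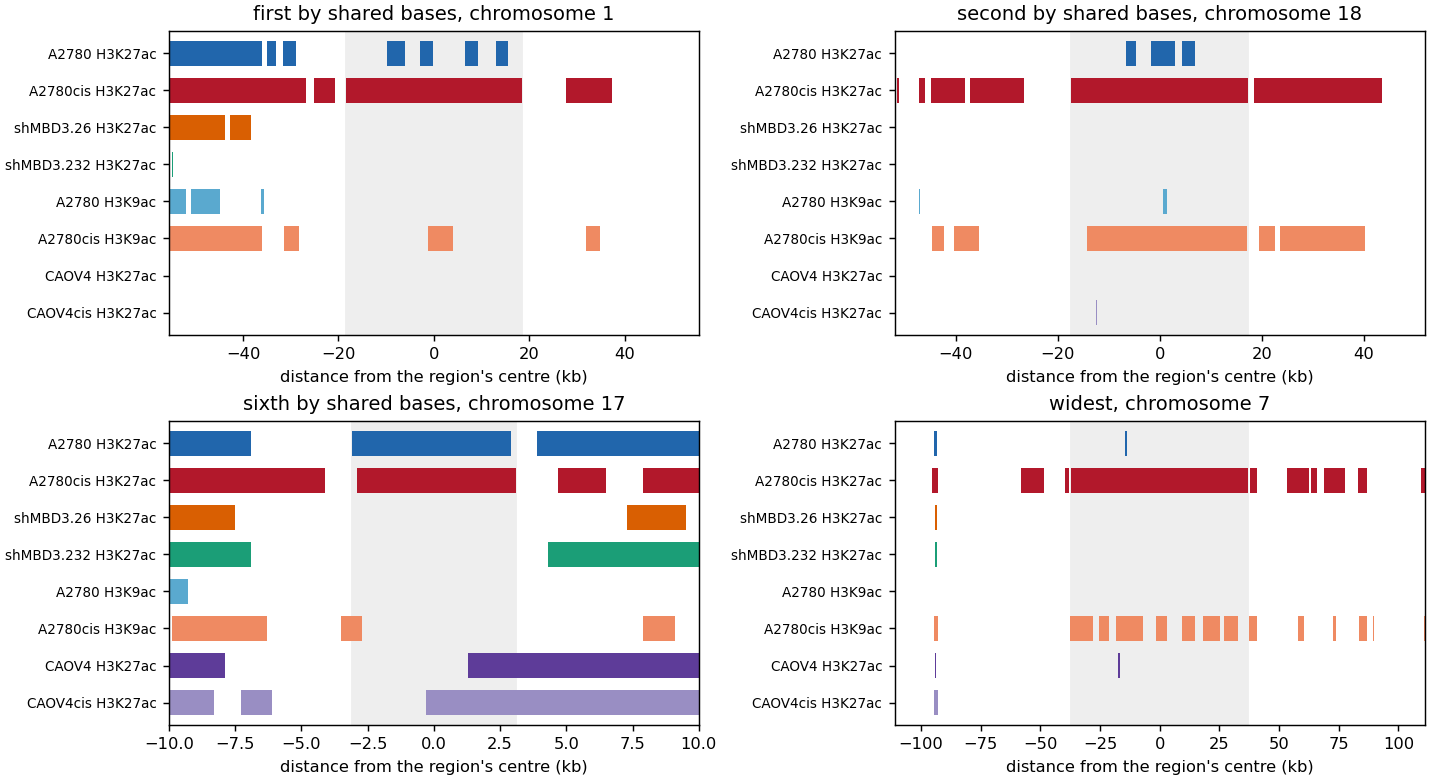
Peaks of the 8 lists around 4 members, with distance from the centre of the member in kb on the x axis and 1 row per list; the shaded band is the member and bars are peaks. The A2780 and A2780cis rows have bars inside the band, the hairpin rows have none, and in 3 of the 4 maps the A2780cis peak is far wider than the A2780 peaks.

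The rule did not use H3K9ac. An A2780 H3K9ac peak lay in 267 members (22.6%, 20.3 to 25.1%) and an A2780cis H3K9ac peak in 321 (27.2%, 24.7 to 29.8%). Over all 13509 regions with A2780 and A2780cis peaks these shares were 70.2% and 69.9%, and in the 12329 other regions 74.8% and 74.0%. H3K9ac was present in both lines at 108 members (9.15%), in A2780 only at 159 (13.5%), in A2780cis only at 213 (18.1%) and in neither at 700 (59.3%, 56.5 to 62.1%). Of the other regions, 62.8% had H3K9ac in both lines and 14.1% in neither. A majority of the members thus carried H3K27ac peaks without an H3K9ac peak in either line. This share was not taken under other settings, while the share with H3K9ac in each line depended on the peaks and lists admitted. With A2780 and A2780cis peaks over 2 kb only, the rule left 133 regions, of which 37.6% had an A2780 and 48.1% an A2780cis H3K9ac peak, and without the A2780cis list 8.49% of 9329 regions had an A2780cis H3K9ac peak.

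Regions missed by only 1 hairpin list lay between the members and the other regions, in part close to the members. An A2780 H3K9ac peak was present in 32.0% of those without shMBD3.26 only and in 39.0% of those without shMBD3.232 only. For A2780cis H3K9ac these shares were 28.5% (24.8 to 32.4%) and 37.6%, the first of them near the members' 27.2%. Neither line had H3K9ac at 51.4% and 42.5% of these regions. A low H3K9ac share was thus not particular to the members.

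CAOV4 lists were not used by the rule either. A CAOV4 H3K27ac peak lay in 245 members (20.8%, 18.5 to 23.2%) and a CAOV4cis peak in 282 (23.9%, 21.6 to 26.4%), against 61.4% and 61.8% over all regions with A2780 and A2780cis peaks. Both CAOV4 lists had a peak at 161 members (13.6%), CAOV4 only at 84 (7.12%), CAOV4cis only at 121 (10.3%) and neither at 814 (69.0%, 66.3 to 71.6%). In the other regions both lists had a peak at 55.9% and neither at 25.3%. Neither had a peak at 57.1% of the regions missing with shMBD3.26 only and at 62.2% of those missing with shMBD3.232 only. Most members were therefore marked in the A2780 pair of lines and in neither CAOV4 line.

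Read together, 501 members (42.5%, 39.7 to 45.3%) had no peak in any of the 4 lists that the rule did not use, against 904 of the other regions (7.33%). At the other end, 14 members (1.19%) had a peak in all 4, against 43.0% of the other regions. Members with H3K9ac in at least 1 A2780 line carried a CAOV4 or CAOV4cis peak in 167 of 480 cases (34.8%, 30.7 to 39.2%). Those without had one in 199 of 700 (28.4%, 25.2 to 31.9%). The intervals overlapped in part, which does not show that the shares are equal, and the difference was not tested. In the other regions these shares were 79.1% and 47.9%.

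The members were narrower than the other regions, and a wider region can meet a peak more readily, so the shares were also taken within classes of region width. Hairpin peaks add to the width of the other regions only, so a class does not match the 2 sets fully. For A2780 H3K9ac the share of members rose from 12.1% up to 1 kb to 27.6% at 2 to 4 kb and 38.6% over 8 kb, while that of the other regions rose from 23.3% to 59.6% and 93.6%. For A2780cis H3K9ac the members' share was 12.1% up to 1 kb, 28.6% at 2 to 4 kb and 37.3% at 4 to 8 kb. Over 8 kb it was 79.5% (65.5 to 88.8%), against 90.2% of the other regions (89.2 to 91.2%). H3K9ac was thus less frequent at members than at other regions in all 5 width classes, and the gap was smallest, relative to the level, for A2780cis over 8 kb.

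CAOV4 peaks behaved otherwise. The share of members with a CAOV4 peak stayed between 19.7% and 22.2% over the 5 width classes, and that with a CAOV4cis peak between 22.0% and 29.5%. In the other regions CAOV4 rose from 20.2% up to 1 kb to 54.0% at 2 to 4 kb and 79.4% over 8 kb. The narrowest members and the narrowest other regions thus hardly differed in CAOV4 state, with 19.9% against 20.2% for CAOV4 and 23.3% against 24.4% for CAOV4cis. This held by merged width alone: with up to 1 kb shared by A2780 and A2780cis peaks, CAOV4 lay at 19.8% of members (17.2 to 22.8%) and 32.1% of the other regions (29.8 to 34.4%), and CAOV4cis at 22.5% and 34.1%.

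**Figure D4:**
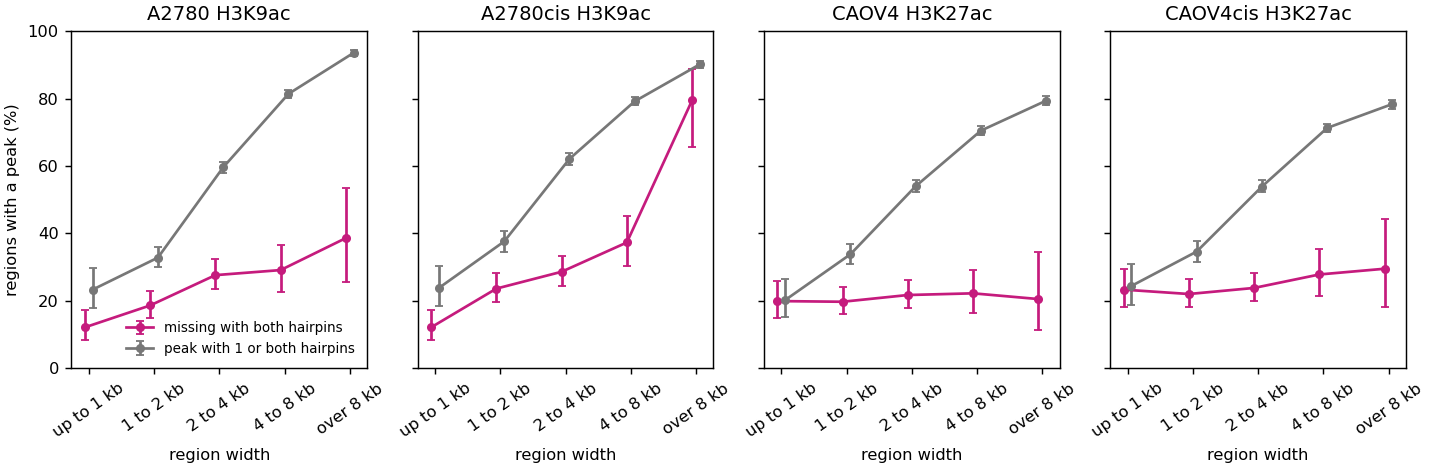
Percent of members and of the other regions with A2780 and A2780cis peaks that held a peak of the list named above each panel, in 5 classes of region width (kb); bars are Wilson 95% intervals. The members' share with a CAOV4 peak stays near 20% in all classes, while that of the other regions climbs to 79.4%.

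Where such a peak was present, it covered a portion of the region in members and other regions alike. The median share of the region under the peak was 35.3% for A2780 H3K9ac, 55.6% for A2780cis H3K9ac, 72.7% for CAOV4 and 60% for CAOV4cis in the members, and 50%, 56.5%, 55.2% and 60% in the other regions.

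Among the members, A2780cis H3K9ac was most frequent where A2780cis H3K27ac covered far more than A2780 H3K27ac. Among the 201 members with at least 4 times more bases under A2780cis than A2780 peaks, an A2780cis H3K9ac peak lay in 83 (41.3%, 34.7 to 48.2%) and an A2780 one in 43 (21.4%). Where A2780 covered at least 4 times more, these numbers were 8 of 63 (12.7%) and 15 of 63 (23.8%), and within 4 times the shares were 25.1% and 22.8%. In the other regions the shares with A2780cis and A2780 H3K9ac were 59.0% and 36.9% where A2780cis covered at least 4 times more, 28.7% and 67.1% in the reverse case, and 75.6% and 76.0% within 4 times. The order of the first and last of these classes for A2780cis H3K9ac thus differed between the members and the other regions. Of the 29 members wider than 10 kb, 25 (86.2%, 69.4 to 94.5%) had an A2780cis H3K9ac peak, 13 (44.8%) an A2780 one and 5 a CAOV4 peak, and 23 of the 29 had at least 4 times more bases under A2780cis peaks. All 11 members over 20 kb had an A2780cis H3K9ac peak. Among the other regions over 8 kb, 90.2% had one, so this was not particular to wide members. No share of the other regions was taken at 10 or 20 kb.

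The same data were read in the other direction, as the share of regions missed by both hairpin lists in each state. Regions with H3K9ac in both lines were missed in 108 of 7854 cases (1.38%, 1.14 to 1.66%), those with H3K9ac in A2780 only in 9.76%, in A2780cis only in 13.4% and in neither in 700 of 2434 (28.8%, 27 to 30.6%). Regions with both CAOV4 lists were missed in 2.28% of cases and those with neither in 20.7%. With a peak in all 4 of these lists 14 of 5321 (0.263%) were missed, and with none 501 of 1405 (35.7%, 33.2 to 38.2%).

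The difference between H3K9ac in both lines and in neither was also seen within classes of the bases shared by A2780 and A2780cis peaks. For up to 1 kb shared, 17.6% of regions with H3K9ac in both lines were missed and 39.7% of those with it in neither. The pair of shares was 3.49% and 20.4% at 1 to 2 kb, and 0.656% and 9.50% at 2 to 4 kb. Over 4 kb it was 7 of 3881 (0.180%) and 3 of 57 (5.26%), the latter resting on few regions. The order of the states with H3K9ac in 1 line was not the same in each class, with 9.09% for A2780 only and 8.68% for A2780cis only at 1 to 2 kb.

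**Figure D5:**
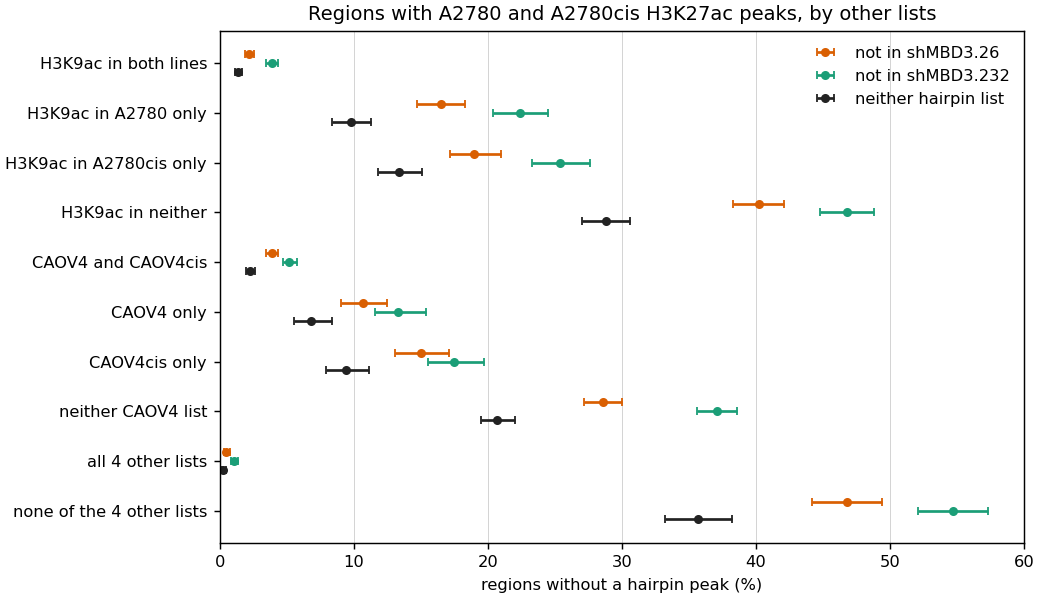
Percent of regions with A2780 and A2780cis peaks that had no shMBD3.26 peak, no shMBD3.232 peak or neither (x axis), by H3K9ac state, CAOV4 state, and for a peak in all or none of these 4 lists (y axis); bars are Wilson 95% intervals. The share with neither runs from 0.263% with a peak in all 4 of these lists to 35.7% with none.

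The 10 members with the most bases under peaks of both A2780 and A2780cis were the widest in both lines at once. Of these, 3 lay within 1 Mb of each other on chromosome 1. At chr1:102406801-102443800, 4 A2780 peaks covered 11.8 kb and an A2780cis peak the whole 37.0 kb, and the nearest hairpin peaks lay 19.8 kb (shMBD3.26) and 36.2 kb (shMBD3.232) away. H3K9ac covered 5.2 kb of this region in A2780cis and was not called there in A2780, and neither CAOV4 list had a peak.

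The region chr1:102282401-102298400 had 9.0 kb under A2780 and 16.0 kb under A2780cis peaks, with H3K9ac over 5.60 kb in A2780 and 12.8 kb in A2780cis. At chr1:102063601-102074400, A2780 peaks covered 9.40 kb, A2780cis peaks 7.6 kb and both together 6.20 kb, and H3K9ac 1.20 kb in A2780 and 3.6 kb in A2780cis. Neither of these regions had a CAOV4 or CAOV4cis peak, and shMBD3.26 peaks were nearer (9.80 and 6.0 kb) than shMBD3.232 peaks (72.0 and 44.8 kb). The fourth on this chromosome, chr1:172277401-172284600, had 5.00 kb under A2780 and 7.20 kb under A2780cis peaks, H3K9ac over 1.20 and 5.60 kb, and hairpin peaks at 4.40 and 5.00 kb.

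Far from any hairpin peak lay chr18:68113001-68147600, with 148 kb to the nearest shMBD3.26 peak and 149 kb to the nearest shMBD3.232 peak. There 3 A2780 peaks covered 9.20 kb and an A2780cis peak 34.6 kb, and H3K9ac covered 0.800 kb in A2780 and 31.4 kb in A2780cis. At chr7:40737801-40769600 the nearest hairpin peaks were 563 and 562 kb away, A2780 peaks covered 5.00 kb and A2780cis peaks 31.8 kb, and H3K9ac covered 0.800 kb in A2780 and 25.2 kb in A2780cis. This last region also carried 1.40 kb of CAOV4 and 5.60 kb of CAOV4cis peaks. In both regions H3K27ac and H3K9ac covered more in A2780cis than in A2780.

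H3K9ac in 1 line alone marked chr8:25361801-25369800, where it covered 7.40 kb in A2780cis and A2780 had none, with 6.0 kb under A2780 and 8.0 kb under A2780cis H3K27ac peaks. The opposite was seen at chr8:49830801-49839400, with 2.60 kb of H3K9ac in A2780 and none in A2780cis; A2780 and A2780cis H3K27ac peaks covered 6.40 and 7.6 kb, and shMBD3.26 and shMBD3.232 peaks lay 5.40 and 402 kb away. At chr7:16446801-16456000, with 5.40 kb under A2780 and 9.20 kb under A2780cis peaks, none of the H3K9ac and CAOV4 lists had a peak, and both hairpin lists had one 3.20 kb away. The remaining region of the 10, chr17:38451801-38458000, had 6.0 kb under A2780 and 6.0 kb under A2780cis peaks. It carried 0.400 kb of A2780cis H3K9ac, and 1.80 kb of CAOV4 and 3.40 kb of CAOV4cis H3K27ac. Hairpin peaks lay only 4.20 and 1.20 kb from it.

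Among members with a peak in both CAOV4 lists, 3 further regions ranked highest by shared bases. At chr4:6694001-6698600, A2780 peaks covered 4.40 kb and A2780cis peaks 3.20 kb, H3K9ac 1.20 kb in each line, and CAOV4 and CAOV4cis peaks the whole 4.6 kb. The region chr14:95784201-95789800, 159 kb from either hairpin list, had 2.80 kb under A2780 and 5.60 kb under A2780cis peaks, and 5.60 and 5.40 kb under CAOV4 and CAOV4cis peaks. The region chr7:36442001-36450200 had 2.80 and 8.20 kb in the A2780 lines and 4.20 and 5.40 kb in the CAOV4 lines. These regions were marked in all 4 untransduced lines and in neither hairpin list.

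The widest members without an H3K9ac, CAOV4 or CAOV4cis peak were wide through A2780cis. An A2780cis peak covered all 20 kb of chr15:37315601-37335600 and A2780 peaks 1.80 kb. For chr10:21955401-21968200 the values were 12.8 and 1.00 kb, and for chr1:15749601-15760800 they were 11.2 and 0.200 kb. The next were chr12:89889601-89900600 with 11 and 0.800 kb and chr9:97216001-97225400 with 9.40 and 0.600 kb.

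The same held for the widest members of all, which were named after their values were seen. At chr7:25276601-25350600 an A2780cis peak covered 74.0 kb and an A2780 peak 0.600 kb, with 48.0 kb of A2780cis H3K9ac. At chr17:28319801-28380800 these values were 61.0, 1.40 and 49.2 kb, and at chr11:102770601-102825200 they were 54.6, 2.60 and 21.2 kb. Such members met the rule through narrow A2780 peaks inside a wide A2780cis domain.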

How the data were processed

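Peak lists of 8 ChIP-seq libraries were analysed, 1 per condition, each its own group by its title; input libraries and control-hairpin cells were not analysed here. Per the submitters' notes and the study's methods, the authors aligned reads to GRCh37 (hg19) with Bowtie2, normalised with their own quantile script and called peaks per library with MACS2 (versions and settings not given in the sources used here). The deposited score column is 0 throughout, so only presence and width were used, and depth is unknown. Positions are 1-based and, but for 1 row, lay on a 200 bp grid; no annotation of this build was used, so regions carry no gene names.

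Peaks on autosomes were merged at 1 bp overlap in Python 3.11.15 with numpy 2.4.6 and pandas 2.3.3, and shares were given Wilson 95% intervals. Code was tested on copies of the A2780 peak list, some of them shifted, with known peaks removed from the copies that stood for the hairpin lists. The members and lists were chosen with earlier results of these data known. Regions named were the 10 with the most bases shared by A2780 and A2780cis peaks, the 5 highest by the same measure with both H3K9ac or both CAOV4 peaks, the 5 widest with none of these, and the top 3 stitched groups by members and by bases; others are said to be named after their values were seen. Alternatives changed the overlap, merging distance, peak width, peak number, reference regions, stitching distance and lists used, and added chromosome X.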

Additional observations from a re-analysis of the deposited data

How the results depend on the processing

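Of 86 values recomputed under other settings or within classes of region width, 30 stayed within the 95% interval of the value reported (shares and median widths) or within 1.5 times of it (counts). The number of regions and the median width were 735 and 1800 bp when no hairpin peak was allowed within 5 kb, 133 and 4600 bp for peaks over 2 kb, 106 and 5000 bp for the wider 50% of the A2780 and A2780cis lists, 609 and 3000 bp with the 18936 widest peaks of each list, and 1871 and 1200 bp with A2780 peaks as the regions. With chromosome X there were 19 more regions.

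The share with A2780 H3K9ac was 37.6% for peaks over 2 kb, 34.0% for the wider 50%, 31.0% at equal peak numbers and 20.1% for A2780 peaks. That with A2780cis H3K9ac was 48.1%, 49.1% and 32.3% under the first 3 of these settings. CAOV4 lay at 17% of regions for the wider 50% and 24.0% at equal peak numbers, and CAOV4cis at 30.8% for peaks over 2 kb, 28.3% for the wider 50%, 21.0% for A2780 peaks and 21.0% with an overlap of 50%. When only the bases shared by A2780 and A2780cis peaks were looked up, a setting chosen after seeing the data, the shares were 18.4% and 24.3% for H3K9ac of A2780 and A2780cis and 17.2% and 18.6% for CAOV4 and CAOV4cis, against 72.8%, 73.1%, 63.6% and 63.2% in the other regions.

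The shMBD3.232, shMBD3.26 and A2780cis lists were left out 1 at a time and the rest merged anew, while the A2780 list was always kept. The number of regions ran from 1769 without shMBD3.232 to 9329 without A2780cis (2243 without shMBD3.26), and the median width from 800 to 2400 bp. The shares ran from 12.7% to 30.3% (A2780 H3K9ac), 8.49% to 31.9% (A2780cis H3K9ac), 12.0% to 23.8% (CAOV4) and 13.5% to 27% (CAOV4cis), lowest without A2780cis. Stitching at 5 kb gave 522 groups of members alone and at 25 kb 193, against 302 at 12500 bp. The number of regions and their width thus depended on the width of the peaks admitted and on the A2780cis list. Dependence on the A2780 list was not examined, and the cause was not tested.

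No paired analysis was possible because each condition had 1 library and no replicate number. Peak height and depth are unknown, so a region missed by a hairpin list cannot be told apart from one just below the authors' cut-off.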
